A study of Mus musculus with 9 samples.

Results

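The genes described here are 10 regulators and marker genes of the naive and memory state of T cells, namely Tcf7, Lef1, Satb1, Bach2, Id2, Id3, Foxo1, Foxp1, Dapl1 and Actn1. They were chosen by symbol and found in the raw count table, 10 of 55011 genes, and all 10 were among the 10235 genes tested after a filter on low counts. RNA sequencing compared wild-type CD8 T cells from mouse spleen in 3 groups of 3 libraries. The D-2HG group received 20 mM of the D form of 2-hydroxyglutarate at the time of stimulation, the L-2HG group received 20 mM of its mirror image, the L form, and the control group received neither. Cells of all 3 groups were naive at the start and were activated for 6 h on plates coated with antibodies to CD3 and CD28 (4 μg/mL), so that no resting cells stand in the comparison. Whether the replicates were separate mice or separate cultures is not stated. The p-values therefore measure the spread between these libraries, which may be technical.

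Naive T cells hold a transcription programme that keeps them quiescent, long-lived and able to recirculate, and antigen receptor signals take part of it down as the cell turns to effector function. TCF1 (gene Tcf7) and LEF1 bind DNA through an HMG box and recruit beta-catenin or co-repressors, and TCF1 is also required by memory and stem-like CD8 T cells. SATB1 organises chromatin, BACH2 represses effector genes, FOXO1 and FOXP1 are forkhead factors of quiescence and homing, and ID2 and ID3 hold E proteins off DNA, with ID2 favoured by effector and ID3 by memory precursor cells. Dapl1 and Actn1 do not encode transcription factors. Dapl1 (death associated protein-like 1) is used as a transcript marker of naive and stem-like T cells, and Actn1 encodes alpha-actinin 1, which crosslinks actin filaments.

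With D-2HG, Dapl1 fell about 4-fold, Id2 and Id3 fell by less, and Satb1 rose. With L-2HG, Satb1, Tcf7 and Actn1 rose, and none of the 10 genes fell past the threshold. Lef1, Bach2, Foxo1 and Foxp1 passed the threshold in no comparison. Differences are log2 fold changes from edgeR's quasi-likelihood test, and a gene passed at a Benjamini-Hochberg adjusted p under 0.05 over all genes tested. The 3 rises with L-2HG did not pass in DESeq2, with no filter on low counts or with only the groups compared. Leaving out 1 library ended the L-2HG call of Tcf7 in 8 of 9 fits, of Satb1 in 6 and of Actn1 in 7. With D-2HG only Dapl1 passed whichever library was left out. With the share of satellite counts as a covariate, described below, 0 of the 10 genes passed against control.

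Promoters are shown for the gene with the largest fall, Dapl1, for Id3, whose level over the libraries was the most like that of Dapl1 among the 10, and for Satb1, which rose with both compounds. Each is the RefSeq sequence on GRCm38.p6 from 250 bases before the transcript start to 30 after it, 5′ to 3′ on the gene's own strand, with motif matches in capitals. Dapl1 is at chr2:59484403-59484682 on the plus strand, Id3 at chr4:136143572-136143851 on the plus strand and Satb1 at chr17:51833261-51833540 on the minus strand.
Dapl1: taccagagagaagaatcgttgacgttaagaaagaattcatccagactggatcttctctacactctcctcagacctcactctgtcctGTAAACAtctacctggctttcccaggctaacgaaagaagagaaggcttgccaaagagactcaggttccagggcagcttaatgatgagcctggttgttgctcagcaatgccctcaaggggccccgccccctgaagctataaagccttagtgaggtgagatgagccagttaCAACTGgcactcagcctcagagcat
Id3: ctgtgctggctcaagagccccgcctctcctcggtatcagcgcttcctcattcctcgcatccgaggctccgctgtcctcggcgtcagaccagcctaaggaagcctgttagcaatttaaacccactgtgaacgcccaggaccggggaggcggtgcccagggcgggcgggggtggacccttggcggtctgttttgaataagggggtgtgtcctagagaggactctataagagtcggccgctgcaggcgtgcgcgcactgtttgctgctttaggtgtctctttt
Satb1: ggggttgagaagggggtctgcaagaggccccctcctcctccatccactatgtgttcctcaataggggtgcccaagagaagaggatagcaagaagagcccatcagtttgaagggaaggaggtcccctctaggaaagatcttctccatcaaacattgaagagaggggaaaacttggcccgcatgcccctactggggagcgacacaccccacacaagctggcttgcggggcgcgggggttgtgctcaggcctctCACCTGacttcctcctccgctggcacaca
Capitals mark the forkhead motif GTAAACA at 164 bases before the Dapl1 start and the E-box CANNTG that begins at base 6 of the Dapl1 transcript and at base 2 of the Satb1 transcript. The search covered both strands of 300 bases, to base 50 of the transcript. Among the 10 genes only Dapl1 held the forkhead letters, which 3.65% of 32851 mouse promoters hold. The E-box, the motif bound by E proteins, was found in 8 of the 10 and in 72.3% of all promoters. The GAS motif TTCNNNGAA was found in 1 of the 10 (Bach2) and in 8.3% of all promoters. The TCF/LEF motif TTCAAAG was found in 0 of the 10 and in 5.14% of all promoters. These letters are a description of the windows and not evidence of binding. All 10 genes had a RefSeq promoter, and the RefSeq start lies 325 bases from that of GENCODE for Id3, 1048 for Id2, 1728 for Foxp1 and 178631 for Bach2, so that the GAS match is in a window far from the GENCODE start of Bach2. RefSeq listed 2 promoters for Tcf7, 4 for Lef1, 5 for Satb1 and 3 for Foxp1. Only the 1 nearest the GENCODE start was searched and shown.

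Library totals ran from 562627 counts in L-2HG replicate 2 to 5731885 in control replicate 3, so values of that L-2HG library are the least precise. The share of counts in Gm10800 and Gm10801, predicted genes in satellite repeats, was 9.22 ± 6.95% with D-2HG, 13.1 ± 9.90% with L-2HG and 2.56 ± 2.43% in control (SD, n = 3 each). An exact two-sided permutation test gave p = 0.2 for D-2HG and p = 0.1 for L-2HG against control, where 0.1 is the smallest p that 3 against 3 allow. Transcripts encoded by mitochondria took 1.54 ± 0.481% of counts with D-2HG, 1.49 ± 0.321% with L-2HG and 2.66 ± 0.416% in control (exact p = 0.1 in each comparison with control). Of the CD8 T cell markers all 6 were detected in every library, with a summed level of 2419 to 2785 CPM (library-scaled counts) with D-2HG, 2189 to 3193 with L-2HG and 2917 to 4805 in control, and 4 of the 6 passed as lower with D-2HG and 1 with L-2HG. Among all genes tested 10.5% passed as lower with D-2HG and 8.3% with L-2HG. B cell markers summed to 135.6 to 137.3 CPM with D-2HG, 138.5 to 200.3 with L-2HG and 175.9 to 318.3 in control, nearly all of it from Ighm, which was lower with both compounds, while Cd79a, Ms4a1, Pax5 and Ebf1 were near 0. Markers of CD4 T cells, plasma cells, NK cells, macrophages, neutrophils and erythroid cells summed to at most 8.56 CPM in any library. Dendritic cell markers summed to 23.1 to 39.3 CPM with D-2HG, 23.7 to 34.3 with L-2HG and 15.02 to 23.2 in control. Most of this sum came from Xcr1 and Zbtb46, while Itgax, Flt3 and Siglech each averaged at most 2.228 CPM in any group. Zbtb46 passed as higher with L-2HG (mean 13.3 against 6.132 CPM in control, edgeR adjusted p = 0.0382). Xcr1 was lower there without passing (10.1 against 11.85 CPM), and neither passed with D-2HG. The sum therefore does not show a common rise of these markers. The part of these differences between libraries in the results below was not tested, except that the satellite share also entered the fit as a covariate. In these bulk libraries fewer cells of a type and less RNA per cell cannot be told apart.

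Among all genes tested, 22.3% passed in D-2HG against control (1205 higher and 1073 lower), 17.7% in L-2HG against control (963 higher and 849 lower) and 0.303% in D-2HG against L-2HG. In limma-voom 54.9% of all genes passed with D-2HG, 50.5% with L-2HG and 1.54% between the compounds, and an unadjusted edgeR p under 0.05 was reached by 38.7%, 36.8% and 6.97%. Scaling by library totals alone in place of TMM changed the split to 1127 higher and 482 lower with D-2HG and to 994 higher and 285 lower with L-2HG, with a median log2 fold change of all genes of 0.10 and 0.15, against 0.04 and 0.05 with TMM. Among the 10 regulators, 4 passed in D-2HG against control, 1 higher and 3 lower, against 11.8% of all genes that passed as higher and 10.5% as lower, with a median log2 fold change of -0.11. In L-2HG against control 3 passed, all higher, against 9.41% of all genes that passed as higher and 8.3% as lower, with a median of 0.23. In D-2HG against L-2HG 0 of the 10 passed in edgeR and in DESeq2 and 1, Dapl1, in limma-voom, and 2 had an unadjusted p under 0.05, where 0.0489% of all genes passed as higher and 0.254% as lower. Ranges over libraries did not overlap for 5 of the 10 genes between D-2HG and control, against 40% of all genes, and for 4 of the 10 between L-2HG and control, against 31.2% of all genes. Both comparisons with control use the same 3 control libraries. The plot of fold changes with intervals shows the 3 comparisons side by side.

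**Figure D1:**
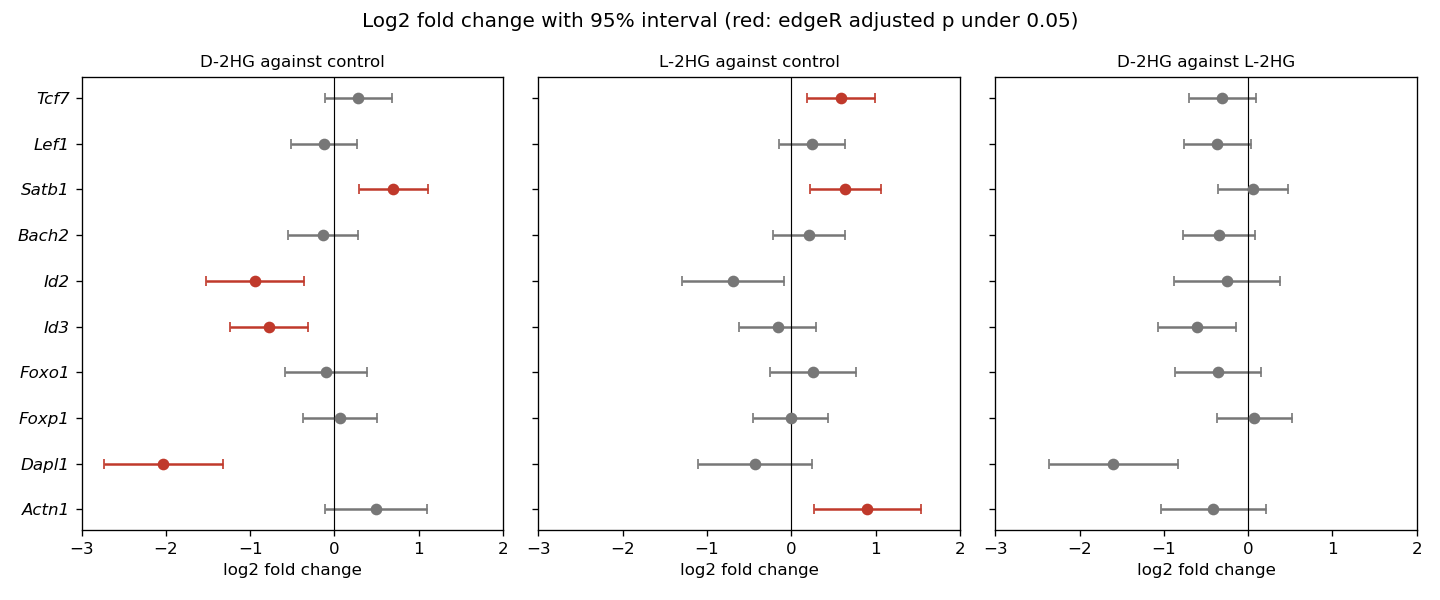
Log2 fold change of each of the 10 genes (points) with its 95% interval (bars) for each compound set against control and for D-2HG set against L-2HG, in red where edgeR's adjusted p was under 0.05. Dapl1 lies at -2.03 with D-2HG against control, farther from 0 than the other 9 genes, and at -1.60 in D-2HG against L-2HG.

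Levels of different genes are compared only per length, as CPM per kb of merged exon. In control cells Id3 was highest at a mean of 221.4 CPM per kb, followed by Tcf7 at 80.5, and their ranges over libraries did not overlap. Foxp1 at 38.1, Dapl1 at 33.9 and Bach2 at 24.8 followed, each overlapping its neighbour in range, then Lef1 at 18.4, Id2 at 13.8 and Satb1 at 8.64 without overlap, and last Actn1 at 2.98 and Foxo1 at 2.92, which overlapped. In this per-length order Dapl1 was the gene at rank 7 with D-2HG (8.05 CPM per kb), at rank 5 with L-2HG (23.5) and at rank 4 in control (33.9). Id3 and Tcf7 kept ranks 1 and 2 with D-2HG (129.7 and 97.8 CPM per kb) and with L-2HG (196.3 and 121.7), and Foxo1 was lowest in all 3 groups. Neighbours in the order with overlapping ranges were Lef1 and Satb1, Dapl1 and Id2, and Actn1 and Foxo1 with D-2HG, and with L-2HG each neighbour in the run Foxp1, Bach2, Dapl1 and Lef1 and in the run Satb1, Id2 and Actn1. The merged exons of Satb1 span 19027 bases with alternative exons, which lowers its level per kb.

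**Figure D2:**
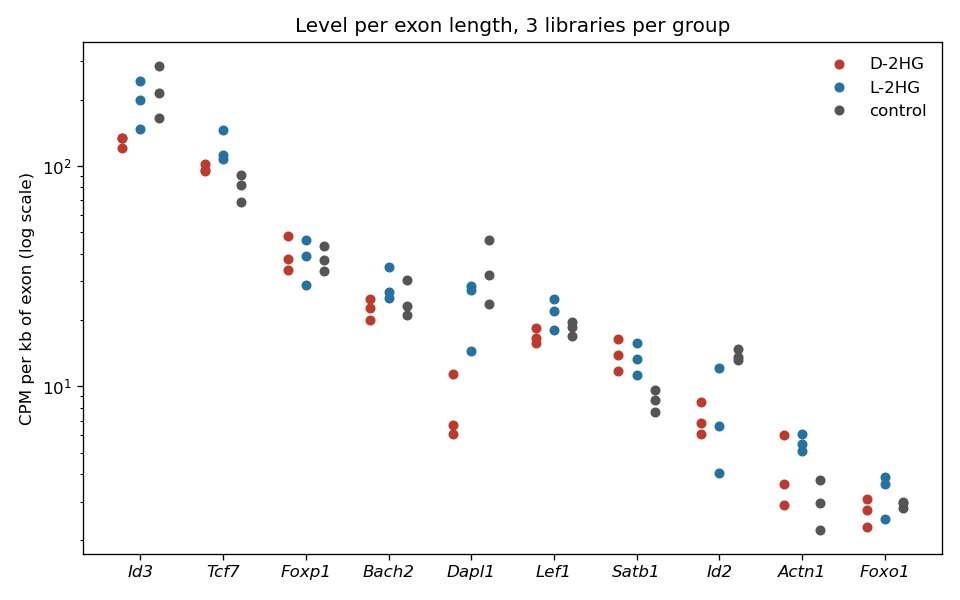
CPM per kb of merged exon on a log scale for each of the 10 genes, with 1 point per library and 3 libraries each of D-2HG, L-2HG and control. Id3 and Tcf7 stand highest in every group, and the D-2HG points of Dapl1 lie below all of its L-2HG and control points.

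Among the HMG-box factors, Tcf7 (ENSMUSG00000000782, chr11:52252371-52283014 on mm10, minus strand, positions here and below from GENCODE M21) was at 249.8, 251.6 and 268.6 CPM in D-2HG libraries, at 281.5, 383 and 294 CPM in L-2HG libraries and at 179.7, 238.9 and 215.4 CPM in control libraries. The 3 groups did not overlap, with L-2HG highest and control lowest. With L-2HG the log2 level of Tcf7 rose by 0.59 ± 0.19 (SE, 95% interval 0.18 to 0.99, edgeR adjusted p = 0.0432), which is 1.501-fold. With D-2HG against control the difference was 0.28 (95% interval -0.12 to 0.68, edgeR adjusted p = 0.277). The call with L-2HG was lost when any 1 library other than control replicate 2 was left out (adjusted p 0.0591 to 0.165), with DESeq2 (adjusted p = 0.0591), with DESeq2 size factors (adjusted p = 0.0535), with only the groups compared in the fit (adjusted p = 0.102), with library totals in place of TMM (adjusted p = 0.0530), with no filter on low counts (adjusted p = 0.511) and with the satellite share as a covariate (log2 0.30, adjusted p = 0.793).

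Lef1, the close relative of Tcf7, was at 161.7, 145 and 138.6 CPM in D-2HG libraries, at 192.3, 157.9 and 219.3 in L-2HG libraries and at 172.4, 148.8 and 163.1 in control libraries. The control range lay across the lower part of the L-2HG range and the upper part of the D-2HG range. The log2 difference was -0.12 with D-2HG (95% interval -0.51 to 0.27) and 0.25 with L-2HG (-0.15 to 0.64) against control, and edgeR's adjusted p was 0.650 and 0.350. Of 7 tested cofactors of TCF and LEF proteins, 1 rose with D-2HG and 1 with L-2HG, none fell, and the list's median log2 fold change was 0.38 with D-2HG and 0.52 with L-2HG. The share of all genes that passed as higher was 11.8% with D-2HG and 9.41% with L-2HG. Tle4, a co-repressor of the Groucho family, averaged 27.8 ± 4.51 CPM with D-2HG and 12.3 ± 5.24 CPM in control (SD, n = 3 each), a log2 rise of 1.23 (edgeR adjusted p = 0.0117). That call was lost without control replicate 1 or 3 or D-2HG replicate 1 (adjusted p 0.0520 to 0.0766), with thinned counts and with the satellite covariate (adjusted p = 0.403). With L-2HG the log2 difference of Tle4 was 0.93 (edgeR adjusted p = 0.0527), which did not pass. It passed with L-2HG without control replicate 2 or L-2HG replicate 3 (adjusted p 0.00636 to 0.0424). It also passed there in limma-voom, at a mean count of at least 50 and with a replicate block. Bcl9l, which links beta-catenin to its co-activators, averaged 22.7 ± 11.4 CPM with L-2HG and 7.19 ± 1.64 CPM in control, a log2 rise of 1.48 (edgeR adjusted p = 0.0156), lost without control replicate 3 or L-2HG replicate 1 (adjusted p 0.0520 to 0.0931) and with the satellite covariate (adjusted p = 0.710). Bcl9, its paralog, had log2 differences of 0.38 with D-2HG and 0.52 with L-2HG that did not pass.

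Satb1 (ENSMUSG00000023927, chr17:51736187-51833290, minus strand) was the 1 gene of the 10 that passed with both compounds. Its level was 263.5, 224.2 and 313.3 CPM in D-2HG libraries, 299.8, 252.7 and 214.1 CPM in L-2HG libraries and 145.4, 182.7 and 164.9 CPM in control libraries. Every library with a compound was above every control library, and the D-2HG and L-2HG ranges overlapped. Satb1 rose by 0.70 ± 0.20 with D-2HG (SE, 95% interval 0.29 to 1.12, edgeR adjusted p = 0.0206) and by 0.64 ± 0.20 with L-2HG (0.22 to 1.06, edgeR adjusted p = 0.0371). D-2HG and L-2HG differed by 0.06 (95% interval -0.36 to 0.48). With D-2HG the call was lost without control replicate 1 or 3 or D-2HG replicate 1 or 3 (adjusted p 0.0691 to 0.117), with no filter on low counts (adjusted p = 0.310) and with the satellite covariate (adjusted p = 0.362). With L-2HG it was lost without control replicate 1 or 3, D-2HG replicate 1 or 2 or L-2HG replicate 1 or 2 (adjusted p 0.0572 to 0.193), with DESeq2 (adjusted p = 0.0565), with only the groups compared (adjusted p = 0.0821), with no filter (adjusted p = 0.472) and with the satellite covariate (adjusted p = 0.709). Exons of Satb1 share bases with other annotated genes, as do those of Lef1, Bach2, Foxo1, Foxp1 and Actn1 and unlike those of Tcf7, Id2, Id3 and Dapl1, and the counting strand is not given in the sources used here.

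**Figure D3:**
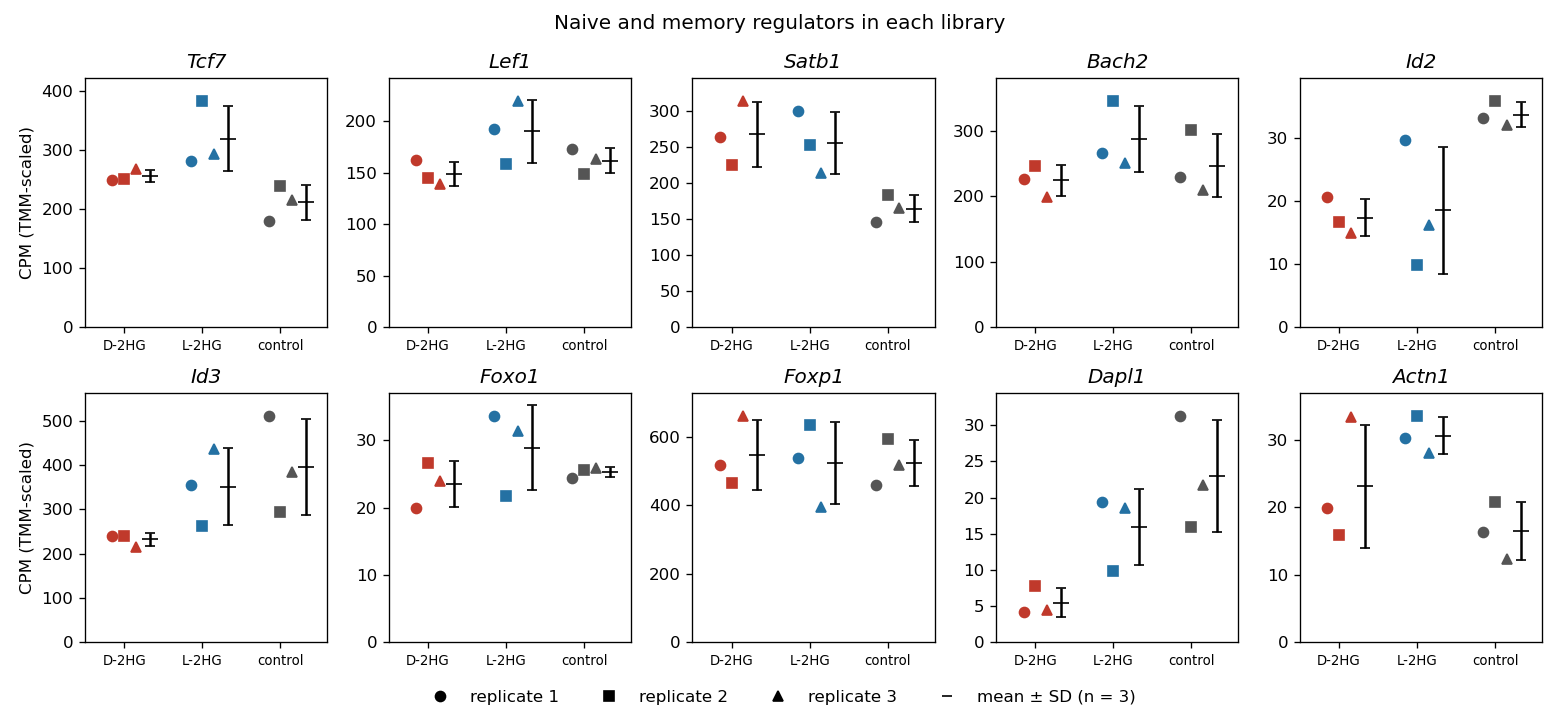
TMM-scaled CPM of each of the 10 genes in every library (symbols mark the replicate number) with the group mean ± SD (n = 3), for D-2HG, L-2HG and control. All compound libraries stand above control for Satb1 and below it for Id2, and for Dapl1 the D-2HG libraries, at 4.13 to 7.76 CPM, stand below all others.

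Bach2, a repressor of effector genes, was at 226.4, 246.6 and 199.6 CPM in D-2HG libraries, at 266.9, 345.5 and 250.2 in L-2HG libraries and at 229.9, 301.4 and 209 in control libraries. D-2HG and L-2HG libraries did not overlap, and both overlapped control. The log2 difference was -0.13 with D-2HG (95% interval -0.55 to 0.28, edgeR adjusted p = 0.641) and 0.21 with L-2HG (-0.21 to 0.63, edgeR adjusted p = 0.461) against control. BACH proteins bind DNA as dimers with small MAF proteins. Of 6 tested relatives and small MAF partners 2 rose with D-2HG, against 11.8% of all genes, none fell, and the list's median log2 fold change was 0.46. With L-2HG 0 of the 6 passed in edgeR or in DESeq2, 3 passed in limma-voom, which called 50.5% of all genes, 0 had an unadjusted p under 0.05, and the median was 0.34. The small MAF gene Mafg averaged 158.4 ± 10.4 CPM with D-2HG and 86.4 ± 3.94 CPM in control, a log2 rise of 0.87 (edgeR adjusted p = 0.00644) that was lost with no filter (adjusted p = 0.107), with thinned counts (adjusted p = 0.0707) and with the satellite covariate (adjusted p = 0.0605). Mafk averaged 201.9 ± 22.04 CPM with D-2HG and 124.6 ± 32.8 CPM in control, a log2 rise of 0.70 (edgeR adjusted p = 0.0245) that was lost without control replicate 1 or 3 or any 1 D-2HG library (adjusted p 0.0533 to 0.131), with no filter and with the satellite covariate (adjusted p = 0.307). Bach1, the second BACH gene, had log2 differences of 0.13 with D-2HG and 0.60 with L-2HG that did not pass.

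Of the inhibitors of E proteins, Id2 (ENSMUSG00000020644, chr12:25093799-25097140, minus strand) was at 20.6, 16.7 and 14.9 CPM in D-2HG libraries, at 29.6, 9.87 and 16.2 CPM in L-2HG libraries and at 33.2, 35.9 and 32.0 CPM in control libraries. All 6 compound libraries were below all 3 control libraries. Id2 fell by 0.94 ± 0.28 on the log2 scale with D-2HG (SE, 95% interval -1.52 to -0.37, edgeR adjusted p = 0.0235). With L-2HG the difference was -0.70 (95% interval -1.30 to -0.09, edgeR adjusted p = 0.0910), and D-2HG and L-2HG differed by -0.25 (-0.88 to 0.38). The lowest L-2HG value rests on 5 counts in the smallest library. The call with D-2HG was lost without control replicate 1 or 3 or D-2HG replicate 2 or 3 (adjusted p 0.0751 to 0.0924), with counts thinned to the smallest library (adjusted p = 0.164), with library totals in place of TMM (adjusted p = 0.0539) and with the satellite covariate (adjusted p = 0.332), while that with L-2HG was gained without L-2HG replicate 1 (adjusted p = 0.0456).

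Id3 (ENSMUSG00000007872, chr4:136143497-136145755, plus strand) was at 240.5, 240.4 and 215.8 CPM in D-2HG libraries, at 355.7, 262.6 and 436.2 CPM in L-2HG libraries and at 510.8, 295.1 and 383.5 CPM in control libraries. The D-2HG libraries were close together and below all others, while L-2HG and control overlapped. Id3 fell by 0.77 ± 0.22 on the log2 scale with D-2HG (SE, 95% interval -1.23 to -0.31, edgeR adjusted p = 0.0213), and with L-2HG the difference was -0.16 (-0.63 to 0.30, edgeR adjusted p = 0.616). D-2HG against L-2HG gave -0.61 (95% interval -1.08 to -0.14), which did not pass over all genes (edgeR adjusted p = 0.522, unadjusted p = 0.0128). The call with D-2HG was lost without control replicate 1 or 3 or any 1 D-2HG library (adjusted p 0.0605 to 0.127), with thinned counts (adjusted p = 0.0668), with library totals (adjusted p = 0.0549) and with the satellite covariate (adjusted p = 0.549).

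The 3 E protein genes that ID proteins act on did not pass in edgeR or DESeq2 with either compound, 2 had an unadjusted p under 0.05 with each compound, against 38.7% of all genes with D-2HG and 36.8% with L-2HG, and 2 passed in limma-voom with each, against 54.9% and 50.5% of all genes. Tcf12, which encodes HEB, averaged 44.8 ± 8.43 CPM with D-2HG, 46.5 ± 15.6 CPM with L-2HG and 29.4 ± 8.52 CPM in control, with log2 differences of 0.64 (edgeR adjusted p = 0.0860) and 0.73 (edgeR adjusted p = 0.0669). Without control replicate 2 both passed (adjusted p 0.0152 with D-2HG and 0.0114 with L-2HG), and with L-2HG also without L-2HG replicate 3 (adjusted p = 0.0424). Tcf4, which encodes E2-2, averaged 4.90 ± 0.395 CPM with D-2HG, 6.66 ± 2.86 CPM with L-2HG and 2.41 ± 0.891 CPM in control. Tcf3, which encodes E2A and should not be confused with TCF1, averaged 11.9 ± 2.48 CPM with D-2HG, 12.8 ± 3.12 CPM with L-2HG and 14.3 ± 4.70 CPM in control. The genomic background estimated from sensory receptor genes came to 48.5 to 273.8% of the counts of Tcf4, over 100% in 6 of 9 libraries, so its level cannot be told apart from that background, and its passing in limma-voom and, with L-2HG, without control replicate 2 (adjusted p = 0.0432) rests on such counts. The list's median log2 fold change was 0.64 with D-2HG and 0.73 with L-2HG.

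Of the forkhead factors, Foxo1 was at 20.0, 26.7 and 23.9 CPM in D-2HG libraries, at 33.6, 21.7 and 31.4 in L-2HG libraries and at 24.4, 25.7 and 25.9 in control libraries. Control libraries were close together and inside the range of both compounds. The log2 difference was -0.10 with D-2HG (95% interval -0.59 to 0.39, edgeR adjusted p = 0.776) and 0.26 with L-2HG (-0.25 to 0.77, edgeR adjusted p = 0.449). Foxp1 was at 517.8, 465.3 and 661.4 CPM in D-2HG libraries, at 539.2, 635.7 and 396.3 in L-2HG libraries and at 458.9, 594.1 and 517.4 in control libraries, and all 3 groups overlapped. Its log2 difference was 0.07 with D-2HG (95% interval -0.37 to 0.51) and -0.01 with L-2HG (-0.45 to 0.44), so that changes larger than these bounds are outside the intervals and smaller ones are not. Of 4 tested relatives of these factors 0 passed with D-2HG in edgeR or DESeq2, 1 passed in limma-voom, which called 54.9% of all genes, and 0 had an unadjusted p under 0.05. With L-2HG 1 of the 4 passed as higher, against 9.41% of all genes. It was Foxp2, at 10.6 ± 7.04 CPM with L-2HG and 1.87 ± 1.77 CPM in control (edgeR adjusted p = 0.0452), with overlapping ranges. The Foxp2 call was lost when a background of genomic reads, estimated from sensory receptor genes, was subtracted (27.6 to 134% of its counts), with the satellite covariate (adjusted p = 0.968), and without control replicate 1 or 3, D-2HG replicate 1 or L-2HG replicate 2 or 3 (adjusted p 0.0565 to 0.173). Foxo3 had log2 differences of 0.15 with D-2HG and 0.10 with L-2HG, Foxo4 of 0.24 and 0.89 and Foxp4 of 0.65 and 0.83, and none passed.

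FOXO1 is known to drive genes of homing and survival in naive T cells, and 4 of these targets are described here. Il7r, the receptor chain for interleukin 7, was at 120.8, 138.4 and 142.7 CPM in D-2HG libraries, at 202.5, 229 and 209.3 CPM in L-2HG libraries and at 56.8, 81.9 and 55.4 CPM in control libraries. The 3 groups did not overlap, with L-2HG highest and control lowest. The log2 rise of Il7r was 1.06 ± 0.20 with D-2HG (SE, edgeR adjusted p = 0.00313, and 0.0786 with the satellite covariate) and 1.73 ± 0.21 with L-2HG (edgeR adjusted p = 0.000159). D-2HG against L-2HG gave -0.67 for Il7r (edgeR adjusted p = 0.285, unadjusted p = 0.00326), which did not pass in edgeR. In limma-voom, which called 1.54% of all genes between the compounds, it passed (adjusted p = 0.0146). The chemokine receptor gene Ccr7 averaged 424.8 ± 47.0 CPM with D-2HG, 452.8 ± 139.8 CPM with L-2HG and 654.8 ± 161.4 CPM in control, with log2 differences of -0.63 (edgeR adjusted p = 0.0543) and -0.52 (edgeR adjusted p = 0.107) that passed without control replicate 2 or L-2HG replicate 3 (adjusted p 0.00515 to 0.0328) and, with D-2HG alone, without L-2HG replicate 2, within the same range. Ccr7 also passed as lower with D-2HG in DESeq2 (adjusted p = 0.0328), with DESeq2 size factors (adjusted p = 0.0482) and with only the groups compared (adjusted p = 0.0313), and in limma-voom with D-2HG (adjusted p = 0.00171) and L-2HG (adjusted p = 0.00273), and with L-2HG with no filter (adjusted p = 0.0464), while with the satellite covariate its differences were -0.20 and -0.01. Klf2, which encodes a factor that drives egress receptors, had log2 differences of -0.72 with D-2HG and -0.47 with L-2HG, and the egress receptor gene S1pr1 of -0.25 and 0.33, and these did not pass in edgeR or DESeq2. Klf2 passed with D-2HG in limma-voom (adjusted p = 0.0159). Of these 4 genes Il7r passed in edgeR with both compounds and the other 3 with neither.

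Dapl1 (ENSMUSG00000026989, chr2:59484653-59505020, plus strand) showed the largest difference of the 10 genes. It was at 4.13, 7.76 and 4.52 CPM in D-2HG libraries, which is 12, 34 and 10 counts, at 19.4, 9.87 and 18.6 CPM in L-2HG libraries and at 31.3, 16.0 and 21.7 CPM in control libraries. The D-2HG libraries were below all L-2HG and all control libraries, and the last 2 groups overlapped. Dapl1 fell by 2.03 ± 0.34 on the log2 scale with D-2HG (SE, 95% interval -2.74 to -1.32, edgeR adjusted p = 0.00111), so control was 4.08-fold higher. No left-out library ended that call (adjusted p 5.39e-05 to 0.0131), while with the satellite share as a covariate it was -1.42 (adjusted p = 0.0927). With L-2HG the difference was -0.43 (95% interval -1.11 to 0.25, edgeR adjusted p = 0.339).

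Between the mirror-image compounds, a single pair at the same dose and time, Dapl1 differed most of the 10 genes. D-2HG against L-2HG gave -1.60 ± 0.37 on the log2 scale (SE, 95% interval -2.36 to -0.84), with an unadjusted p of 0.000291 and an adjusted p of 0.0727 in edgeR over all genes. It passed without control replicate 2 (adjusted p = 0.0284), without L-2HG replicate 2, where Dapl1 had 5 counts (adjusted p = 0.0324), in limma-voom (adjusted p = 0.00590) and with the satellite share as a covariate (adjusted p = 0.00383). Of the 10 genes 8 had a lower mean in the fit with D-2HG than with L-2HG, at a median log2 difference of -0.35 against 0.01 for all genes. Tcf7, Bach2, Id3 and Dapl1 had ranges that did not overlap between D-2HG and L-2HG, as did 15.9% of all genes. For the other genes the intervals of the difference reached, at their widest, from -1.03 to 0.21 for Actn1 and from -0.88 to 0.38 for Id2, so the misses do not show that the compounds act alike.

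Actn1 (ENSMUSG00000015143, chr12:80167547-80260371, minus strand) was at 20.0, 16.0 and 33.4 CPM in D-2HG libraries, at 30.3, 33.6 and 28.1 CPM in L-2HG libraries and at 16.3, 20.8 and 12.3 CPM in control libraries. L-2HG libraries were all above control, and D-2HG libraries overlapped both. Actn1 rose by 0.90 ± 0.30 on the log2 scale with L-2HG (SE, 95% interval 0.28 to 1.53, edgeR adjusted p = 0.0453), which is 1.87-fold, and with D-2HG the difference was 0.49 (-0.11 to 1.098, edgeR adjusted p = 0.214). In limma-voom, which called 54.9% of all genes with D-2HG, Actn1 passed with D-2HG (adjusted p = 0.0253). The L-2HG call was lost when any 1 library other than control replicate 2 or D-2HG replicate 3 was left out (adjusted p 0.0511 to 0.202), with DESeq2 (adjusted p = 0.126), with only the groups compared (adjusted p = 0.0664), with no filter (adjusted p = 0.263), with genomic background subtracted (adjusted p = 0.0681) and with the satellite covariate (log2 0.16, adjusted p = 0.936). Up to 11.3% of its counts in a library equalled that background, against up to 15.8% for Foxo1 and at most 0.510% for Tcf7. Of 7 tested genes for other alpha-actinins and focal adhesion proteins 3 rose with D-2HG and 2 with L-2HG, with a median log2 fold change of 0.59 and 0.83. Of all genes tested, 11.8% passed as higher with D-2HG and 9.41% with L-2HG. Talin 1 (Tln1) averaged 134.5 ± 13.1 CPM with D-2HG, 157.6 ± 26.4 CPM with L-2HG and 89.5 ± 5.39 CPM in control, and rose with D-2HG (log2 0.59, edgeR adjusted p = 0.0356) and L-2HG (log2 0.81, edgeR adjusted p = 0.0155). Filamin A (Flna) rose with D-2HG (log2 0.76, edgeR adjusted p = 0.0170) and L-2HG (log2 0.95, edgeR adjusted p = 0.0120), and paxillin (Pxn) rose with D-2HG (log2 1.01, edgeR adjusted p = 0.0445). Each D-2HG call of these 3 was lost without control replicate 1 or 3 or any 1 D-2HG library, that of Tln1 also without L-2HG replicate 1 (adjusted p 0.0516 to 0.182), the L-2HG call of Flna without control replicate 3 (adjusted p = 0.0813) and that of Tln1 without control replicate 1 or 3 or L-2HG replicate 1 (adjusted p 0.0656 to 0.0979). With no filter and with the satellite covariate all of these calls were lost (covariate adjusted p 0.364 to 0.716), and those of Tln1 and Pxn also with thinned counts. The Pxn call was further lost with DESeq2 (adjusted p = 0.0597), at a mean count of at least 50 (adjusted p = 0.0537) and with genomic background subtracted (adjusted p = 0.0642).

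Among 10 other tested regulators of naive and memory T cells 1 rose with D-2HG and 0 passed with L-2HG in edgeR or DESeq2, where 5 had an unadjusted p under 0.05, against 36.8% of all genes, and 6 passed in limma-voom, against 50.5%. Stat3, which carries cytokine signals and supports memory formation, averaged 224.1 ± 16.1 CPM with D-2HG and 119.7 ± 39.4 CPM in control, a log2 rise of 0.92 (edgeR adjusted p = 0.0100) that was lost without control replicate 1 or 3 (adjusted p 0.0602 to 0.0768), with no filter and with the satellite covariate (adjusted p = 0.156). Zeb1 and Ikzf1 had log2 differences of 0.50 and 0.53 with D-2HG and of 0.64 and 0.56 with L-2HG, short of the threshold in the main edgeR fit. Among 8 tested effector regulators 1 rose and 1 fell with D-2HG, and 0 passed with L-2HG in edgeR or DESeq2, where 3 had an unadjusted p under 0.05 and 5 passed in limma-voom, against the same 36.8% and 50.5% of all genes. Irf4, induced by antigen receptor signals, averaged 1190 ± 86.1 CPM with D-2HG and 664.2 ± 102.9 CPM in control, a log2 rise of 0.84 (edgeR adjusted p = 0.00897) that was lost without control replicate 3 (adjusted p = 0.0849), with no filter and with the satellite covariate (adjusted p = 0.106). Tbx21, which encodes the effector factor T-bet, averaged 4.02 ± 2.35 CPM with D-2HG and 10.5 ± 5.28 CPM in control, a log2 difference of -1.52 (edgeR adjusted p = 0.0397) and a call that was lost without control replicate 1 or 3 or any 1 D-2HG library (adjusted p 0.0558 to 0.287), with DESeq2, with genomic background subtracted and with the satellite covariate (adjusted p = 0.222). Runx3, a CD8 lineage factor, had log2 differences of 0.38 with D-2HG and 0.75 with L-2HG that did not pass. Without control replicate 2, Stat3, Zeb1, Ikzf1, Irf4 and Runx3 passed with L-2HG (adjusted p 0.00162 to 0.0353), and Ikzf1 also with D-2HG (adjusted p = 0.00714). At a mean count of at least 50, Stat3, Zeb1, Ikzf1 and Irf4 passed with L-2HG, and Ikzf1 with D-2HG. With a replicate block, Stat3, Ikzf1, Irf4 and Runx3 passed with L-2HG, and Ikzf1 with D-2HG. Thinned counts let Zeb1 and Ikzf1 pass with both compounds, and Ikzf1 passed with D-2HG with only the groups compared. Over all 8 lists of neighbouring genes 9 of 50 rose and 2 fell with D-2HG, and 5 rose and 0 fell with L-2HG, at a median log2 fold change of 0.28 and 0.53. For these and the list counts above, the share of all genes was 11.8% higher and 10.5% lower with D-2HG. With L-2HG it was 9.41% higher and 8.3% lower. In D-2HG against L-2HG 0 of these 50 passed in edgeR and in DESeq2, 2 passed in limma-voom (1.54% of all genes) and 5 had an unadjusted p under 0.05 (6.97% of all genes). With no filter on low counts 4 of the 11 calls with D-2HG (Tle4, Il7r and Tbx21 among them) and 3 of the 5 with L-2HG (Bcl9l, Foxp2 and Il7r) were kept.

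**Figure D4:**
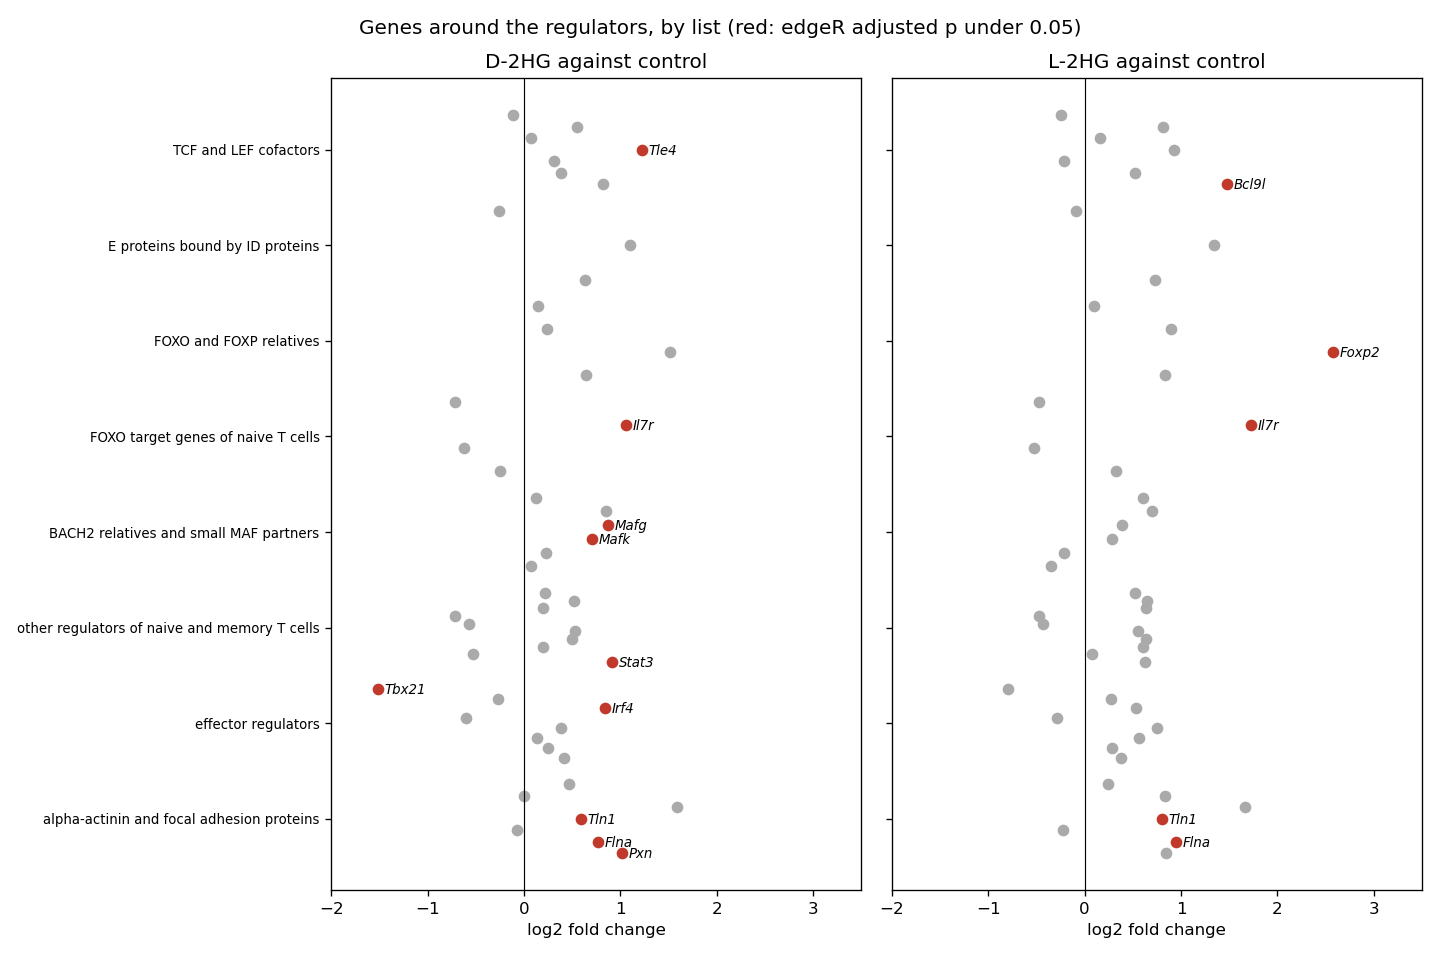
Log2 fold change of genes of the 8 lists of neighbouring genes, in D-2HG against control and L-2HG against control, in red and named where edgeR's adjusted p was under 0.05. The plot is without what is not reported here, so it does not show every gene that passed. Among the genes shown, Tbx21 at -1.52 with D-2HG is the 1 named gene left of 0, and Il7r is named right of 0 with both compounds.

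Levels of several of the 10 genes moved with the satellite share between libraries of the same group. Within L-2HG, replicate 2 had the highest satellite share, 24.5% against 6.71% and 7.98%, with the highest Tcf7, Bach2, Foxp1 and Actn1 and the lowest Lef1, Id2, Id3, Foxo1 and Dapl1. Within D-2HG, replicate 3 had the highest share, 17.1% against 6.83% and 3.79%, with the highest Tcf7, Satb1, Foxp1 and Actn1 and the lowest Lef1, Bach2, Id2 and Id3. Within control, replicate 2 had the highest share, 5.35% against 1.43% and 0.910%, with the highest Tcf7, Satb1, Bach2, Id2, Foxp1 and Actn1 and the lowest Lef1, Id3 and Dapl1. Tcf7, Foxp1 and Actn1 were thus highest, and Lef1 and Id3 lowest, in the library with the highest satellite share in all 3 groups, while Satb1, Bach2, Id2, Foxo1 and Dapl1 were not placed alike in all 3. That library also had the lowest total count of its group (2431371 with D-2HG, 562627 with L-2HG and 1990896 in control). Within groups the satellite share and depth therefore cannot be told apart. Over all 9 libraries, group differences included, the Pearson correlation of the log2 level with the log2 satellite share was 0.913 for Actn1, 0.855 for Tcf7 and 0.792 for Satb1. It was -0.754 for Id2, -0.599 for Id3 and -0.597 for Dapl1. The level in control replicate 2 over the mean of the other 2 controls was 1.21 for Tcf7, 1.18 for Satb1, 1.46 for Actn1, 0.66 for Id3 and 0.604 for Dapl1, and 1.1 for Id2, which was not lower there. With the share as a covariate 0 of the 10 genes passed against control in edgeR with either compound, and 3 with D-2HG (Satb1, Id2 and Dapl1) and 0 with L-2HG had an unadjusted p under 0.05. The estimates then were 0.50 for Satb1, -0.79 for Id2 and -0.37 for Id3 with D-2HG, and 0.41 for Satb1, 0.30 for Tcf7 and 0.16 for Actn1 with L-2HG, all of the same sign as without it. Of the calls among neighbouring genes, 1 of 11 was kept with D-2HG and 1 of 5 with L-2HG (Il7r) under this covariate. Libraries of similar share could be set side by side. D-2HG replicate 2 (3.79%) had less than control replicate 2 (5.35%) for Dapl1 (7.76 against 16.0 CPM), Id2 (16.7 against 35.9 CPM) and Id3 (240.4 against 295.1 CPM), and more for Satb1 (224.2 against 182.7 CPM). D-2HG replicate 1 (6.83%) had 4.13 CPM of Dapl1, against 19.4 CPM in L-2HG replicate 1 (6.71%) and 18.6 CPM in L-2HG replicate 3 (7.98%). D-2HG replicate 1, closer in share to control replicate 2, had 20.6 CPM of Id2, 240.5 CPM of Id3 and 263.5 CPM of Satb1. L-2HG replicate 1, closer still, had less Id2 than control replicate 2 (29.6 against 35.9 CPM). It had more Dapl1 (19.4 against 16.0 CPM), Id3 (355.7 against 295.1 CPM) and Satb1 (299.8 against 182.7 CPM). Tcf7 (281.5 against 238.9 CPM) and Actn1 (30.3 against 20.8 CPM) were also higher there. These pairs are single libraries picked from several possible, with no test. They also differ in depth, at 4139601 counts in D-2HG replicate 2 and 1990896 in control replicate 2.

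**Figure D5:**
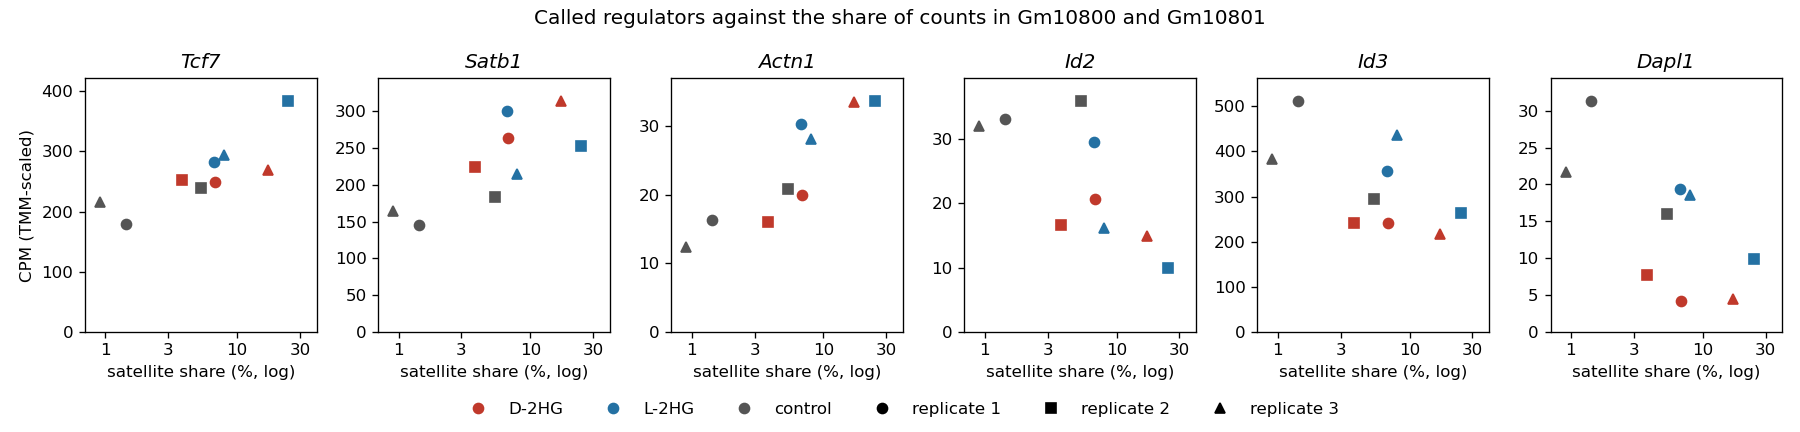
TMM-scaled CPM of the 6 genes past the threshold in at least 1 comparison with control, against the percent of counts in Gm10800 and Gm10801 (log scale), with 1 point per library in 3 libraries each of D-2HG, L-2HG and control. Tcf7 and Actn1 are highest in L-2HG replicate 2 at a share of 24.5%, and the 3 D-2HG points of Dapl1 lie lowest at shares of 3.79 to 17.1%.

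Over the 9 libraries, which share group means, depth and the satellite share, the log2 levels of Id3 and Dapl1 had the highest Pearson correlation among pairs of the 10 genes, 0.921, followed by Tcf7 with Actn1 at 0.773. These values are descriptions. The genes most like each of the 6 genes past a threshold were found among 9200 others. For Dapl1 they were Irf1 at 0.972, S1pr4 at 0.968 and Tgtp2 at 0.965. For Id3 they were Sh3bgrl3 at 0.984, Rac2 at 0.982 and Gimap4 at 0.975, and for Id2 Borcs7 at 0.979, Arf6 at 0.962 and Coq5 at 0.948. For Satb1 they were Nlk at 0.986, Hipk1 at 0.983 and Hmbox1 at 0.968. For Tcf7 they were Ncoa1 at 0.969 and Cep192 at 0.963, and for Actn1 Nsd1 at 0.966 and Casp9 at 0.964.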

How the data were processed

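Polyadenylated RNA was primed with oligo(dT), amplified by PCR and tagmented, per the labels' protocols. The deposited table holds raw counts per gene symbol, made by the authors with STAR 2.7.3a and featureCounts on mm10, per the submitters' processing notes. The annotation release and strand setting are not given in the sources used here, and a second, normalized table was not used. The software was edgeR 4.0.16, DESeq2 1.42.0 and limma 3.58.1 under R 4.3.3, tested on simulated data. Genes passed filterByExpr (minimum count 10) and libraries were scaled by TMM, so that CPM are counts over scaled totals. A robust quasi-likelihood fit with 1 mean per group over all 9 libraries (6 residual degrees of freedom) gave F tests, adjusted over 10235 genes in each comparison. The 95% intervals are unadjusted. Chi-square over degrees of freedom between 2 replicates of a group was 5.83 to 42.4, beyond counting error.

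The 10 genes, the gene lists and the tests were chosen with earlier results of these data known. All 10 are named, with up to 3 genes per list by the smallest adjusted p in any comparison, whole lists of 5 or fewer, and the 3 genes most correlated with each gene that passed, on log2 CPM with a prior count of 2; a few genes under this rule are not reported here, though counts over whole lists include them. Exon lengths came from GENCODE M21. Genomic background was estimated per exon base from 1655 of 1743 sensory receptor genes, without the 5% with most reads per base. Alternatives were another test or scaling, no filter or a mean count of at least 50, only the groups compared, a replicate block, thinning to the smallest library, the log2 satellite share as a covariate, background subtraction and leaving out each library.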

Additional observations from a re-analysis of the deposited data

How the results depend on the processing

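No gene of the 10 changed sign where it had passed, in 139 values over the alternatives, of which 58 no longer passed; of 458 values that had not passed, 33 changed sign and 6 passed. For D-2HG against control, all genes passing numbered 5615 with limma-voom, 1341 with no filter, 722 thinned, 96 with the satellite share as covariate and 384 to 4257 without 1 library, against 2278. Among the 10 genes the number was 2 with library totals, 2 thinned, 0 with the satellite share and 1 to 4 without 1 library, against 4. For L-2HG against control, all genes passing numbered 5169 with limma-voom, 1195 at a mean count of at least 50, 427 with only the groups compared, 690 thinned, 8 with the satellite share, 684 with background subtracted and 65 to 4108 without 1 library, against 1812. Among the 10 genes it was 0 with DESeq2, with no filter, with only the groups compared and with the satellite share, and 0 to 3 without 1 library, against 3. For D-2HG against L-2HG, all genes passing numbered 158 with limma-voom, 9 thinned, 76 with the satellite share and 10 to 60 without 1 library, against 31, and among the 10 genes 1 with limma-voom, 1 with the satellite share and 0 to 1 without 1 library, against 0. The cause of these shifts was not tested. Thinning leaves fewer counts and leaving out leaves fewer libraries, but the numbers did not always fall. The highest numbers of all genes passing without 1 library (4257, 4108 and 60) each came without control replicate 2. With DESeq2, 875 genes were higher and 1238 lower with D-2HG, and 694 higher and 1226 lower with L-2HG. With no filter, 531 were higher and 810 lower with D-2HG, and 608 higher and 1354 lower with L-2HG. Dapl1 was not tested at a mean count of at least 50. Correlations of deviations ran from -0.17 to 0.28 between same-numbered libraries of different groups and from -0.30 to 0.28 between the others. Depth and the satellite share also differ within groups, so these values cannot show whether the numbers pair the libraries. A replicate block gave 2314 genes and 4 of the 10 with D-2HG, 2284 genes and 3 of the 10 with L-2HG, and 35 genes and 0 of the 10 between the compounds, and changed no call among them.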
